A study of Rattus norvegicus with 4 samples.

Results

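The miRNAs described here are the 38 of the 719 rat miRNAs on the array that the scanner software called detected on 1, 2 or 3 of the 4 arrays, outside a set of well-known miRNA families that the selection left out. In all, 71 miRNAs were detected on some arrays only, and 33 of them belonged to the families left out. Another 111 miRNAs had a detection call on each of the 4 arrays, and 537 had one on no array. Of the 38, 25 were detected on 1 array, 7 on 2 arrays and 6 on 3 arrays. The detection calls chose these miRNAs, so the pattern of detection is given as a description and nothing about it was tested.

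RNA of exosomes, small vesicles that cells shed into blood, was taken from the serum of male rats and labelled with Cy3 for 1-colour Agilent miRNA arrays. The groups were naive rats, rats with light disease on day 35, rats with moderate disease on day 49 and rats with severe disease on day 49, with 1 array per group. On what was injected the descriptions differ: a hepatocellular carcinoma cell line in the treatment protocol, and exosomes of that carcinoma, as 1 dose to "baffolo rats", in the design text. It speaks of 4 independent experiments per time, but whether the RNA on an array was pooled is not given in the sources used here, and neither is a genotype. With 1 array per group there was no replicate error and no test, and severity, animal and array cannot be told apart. Day cannot be told apart from them either, except between the moderate and severe arrays, which are both of day 49. Each ± gives the standard error (SE) over a single array's repeated spots, so it holds the noise between spots and nothing else.

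A miRNA is cut from a hairpin precursor whose 5p and 3p arms can each become the mature strand, and usually one arm is kept far more than the other. The bases near the 5′ end, the seed, pair with messenger RNA targets, so miRNAs with the same seed form families with overlapping targets. Many miRNA genes lie inside other genes or in clusters made as 1 transcript, and serum carries miRNAs mainly from blood cells, with a smaller share from liver and other organs.

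Mature sequences were found in RefSeq (build GRCr8) for 34 of the 38 miRNAs, and those 34 had 34 distinct seeds. miR-151-3p, miR-219-5p, miR-335 and miR-674-3p are named only. The sequences below belong to the 6 miRNAs past 2-fold after scaling in at least 1 comparison below: 3 that were brightest on the severe array, then 3 that every array but the severe one detected. Capitals mark the seed, bases 2 to 8.
miR-183-5p: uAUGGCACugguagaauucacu
miR-296-5p: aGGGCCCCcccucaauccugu
miR-770-3p: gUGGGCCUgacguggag
miR-32-3p: gCAAUUUAgugugugugauauu
miR-672-5p: uGAGGUUGguguacuguguguga
miR-883-5p: uGCUGAGAgaaguagcaguuacu

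In GRCr8, miR-183-5p lies at chr4:59756106-59756127 on the minus strand, outside the span of any other gene. miR-296-5p lies at chr3:183470114-183470134 on the minus strand, also outside other genes, and at 66.7% GC it is among the GC-rich members. miR-770-3p lies at chr6:134298129-134298145 on the plus strand inside Meg3, a long noncoding RNA of the imprinted Dlk1-Dio3 region. It was the shortest of the matched members, at 17 bases, and the richest in G and C, at 70.6%. miR-32-3p lies at chr5:76391288-76391309 on the minus strand within Tmem245. Its partner arm miR-32-5p is the better known one and shares its seed with the miR-92 family. miR-672-5p (chrX:73192351-73192373, minus strand, within Nexmif) and miR-883-5p (chrX:150452007-150452029, minus strand, within an uncharacterised long noncoding RNA) are both X-linked, and miR-883 belongs to a rodent cluster near Fmr1 known from testis.

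A second set of sequences shows the members that share a seed with a miRNA detected on all 4 arrays. Of the 11 members with a seed mate on the array, 4 had such a mate: miR-98-5p, miR-152-3p, miR-322-5p and miR-301b-3p. Capitals again mark the seed, and each member stands before its mates.
miR-98-5p: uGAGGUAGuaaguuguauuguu
let-7a-5p: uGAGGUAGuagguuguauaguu
let-7c-5p: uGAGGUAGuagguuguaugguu
miR-152-3p: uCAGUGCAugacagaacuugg
miR-148b-3p: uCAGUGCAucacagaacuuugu
miR-322-5p: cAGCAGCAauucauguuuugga
miR-15b-5p: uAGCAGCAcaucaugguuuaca

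miR-98-5p differed from let-7a-5p at 2 of 22 bases and from let-7c-5p also at 2. miR-152-3p differed from miR-148b-3p at 2 of 21 compared bases. miR-322-5p differed from miR-15b-5p at 6 of 22 bases, so outside the seed these are more distant. The levels of these mates follow with the members' results.

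The detection call followed a simple rule on these arrays. In 2876 of 2876 pairs of a miRNA and an array, it equalled whether at least 1 probe had a signal of at least 3 times its error. Among the calls that chose the members, those just inside the limit were miR-465-5p on the moderate array, with a ratio of 3.0, miR-344g on the severe array, with 3.06, and miR-219-5p on the moderate array, with 3.1. Just outside it were miR-203a-3p on the naive array at 2.98, miR-362-3p on the light array at 2.95 and miR-300-5p on the light array at 2.85. Of the 95 pairs in which a member was not detected, 26 had a ratio between 2 and 3 and 39 had one under 1. Many absences were thus a small step below the limit, while others lay at blank level.

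**Figure D1:**
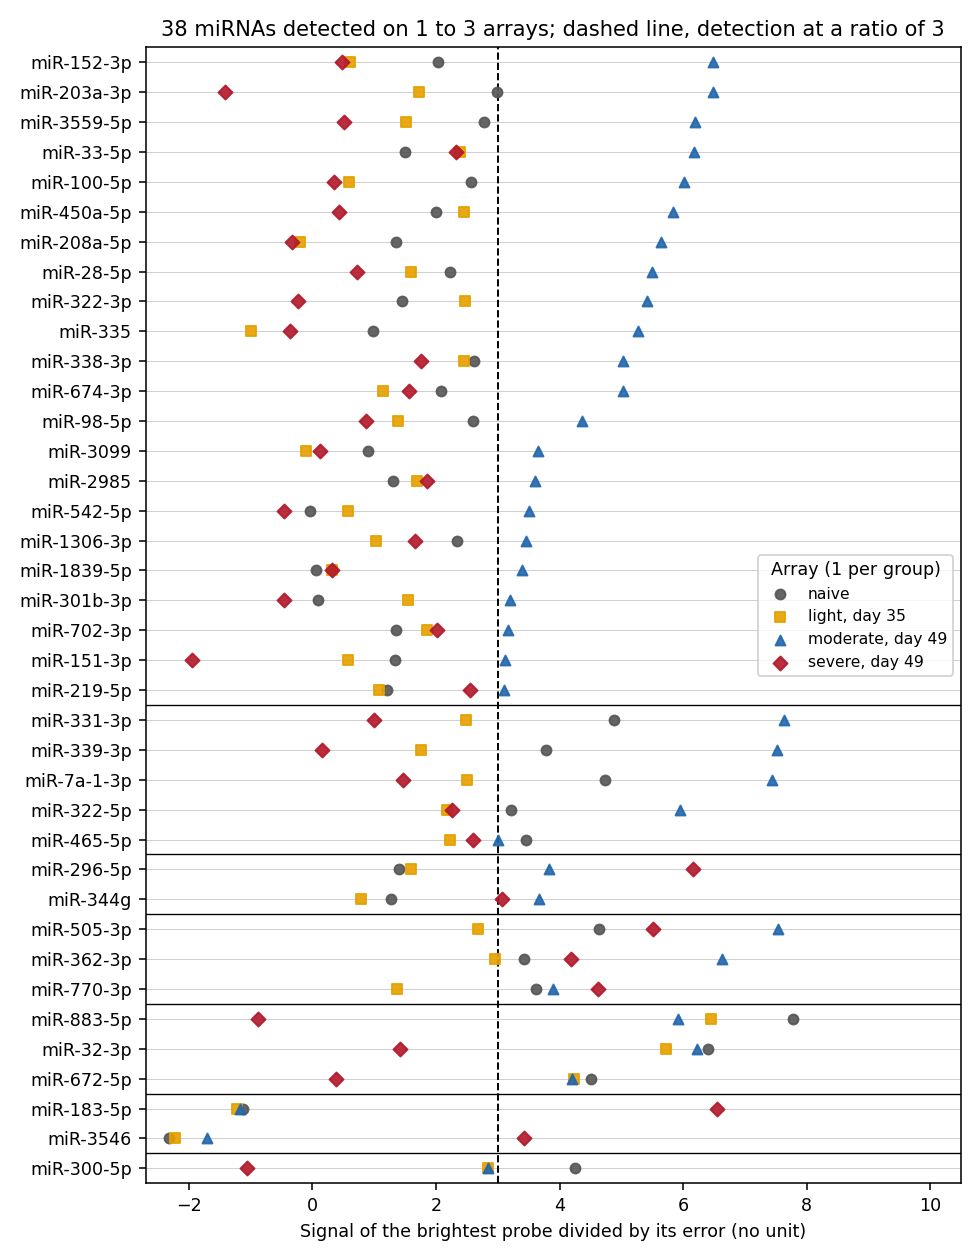
For each of the 38 miRNAs (rows, grouped by the arrays that detected them), the horizontal axis gives the signal of its brightest probe divided by that probe's error, a ratio without unit, in 1 marker per array. The dashed line marks the detection limit of 3; the moderate array lies to its right for 35 miRNAs, and no point exceeds 7.77.

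The members were faint. On the array where each was brightest by this ratio, the ratio ranged from 3.1 to 7.77 with a median of 5.35, whereas the 111 miRNAs detected on all arrays had a median of 9.93 on the moderate array. The detection of 28 of the 38 rested on 1 probe there, against 5 of the 111. For 13 of the 38, every probe had under 0.5 of its spots flagged as well above background. The signal of a miRNA is given below as the sum over its probes of the mean background-subtracted signal, in intensity units, and a sum can be negative. Over never-detected miRNAs with 2 probes, the median sum was -14.0 (naive), -10.4 (light), -11.2 (moderate) and -11.2 (severe), so a sum near 0 lies above the level of a blank. With 4 probes it was -30.6 (naive), -23.8 (light), -24.7 (moderate) and -23.1 (severe), so the blank level depends on the number of probes. The floor of an array was the dimmest probe signal of those for which 0.5 or more of the spots stood well above background: 15.6, 15.1, 13.1 and 16 in the same order. A miRNA counted as measured if it had a detection call and a sum at or over the floor.

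The moderate array held most of the members. It detected 35 of the 38, the naive array 12, the severe array 7 and the light array 3. Measured there were 28, 6, 5 and 3 members. Over all miRNAs the same order held, with 176 detected on the moderate array, 140 on the naive, 129 on the severe and 122 on the light array. The 75th percentile over the 111 miRNAs detected everywhere, used for scaling, ran in the same order. It was 954 on the moderate, 666 on the naive, 415 on the severe and 356 on the light array. The median over the same miRNAs was 354, 224, 140 and 151 in that order, so light stood above severe. The labelling spike-ins read 1237, 1388, 854 and 1380, highest on the naive array. After scaling, the same floor stood 1.71-fold higher on the naive, 2.81-fold higher on the severe and 3.1-fold higher on the light array than on the moderate array. The part of brightness in the detection calls was not tested, and fewer vesicles in serum and less of a miRNA per vesicle cannot be told apart.

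The arrays carried miRNAs known from serum. miR-451-5p, which marks red cells, miR-223-3p of myeloid cells, and miR-122-5p of hepatocytes were detected on all 4 arrays, and the neuronal miR-124-3p and miR-9a-5p, the islet miR-375-3p and the epithelial miR-200b-3p were detected on none. The lists of those tissues were not empty, though. Of 28 brain miRNAs on the array, 1 was detected on all 4 arrays and 2 on some. Of 14 pancreas and endocrine miRNAs, 1 was detected on all 4 and 1 on some, and of 16 epithelial miRNAs, 1 on some. The summed signal of the detected members of a list of 11 red cell miRNAs was 35009 in naive, 24171 in light, 55154 in moderate and 17191 in severe. The moderate array was the brightest in that list, as it was for lists of lymphoid and myeloid miRNAs (8488, 6287, 16951 and 2870) and of platelet and endothelial miRNAs (2733, 2033, 4975 and 1611).

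The largest group, 22 miRNAs, was detected on the moderate array alone. miR-3559-5p, an X-linked miRNA within the span of Zdhhc15, read 13.0 ± 0.98, 6.64 ± 1.18, 36.8 ± 1.69 and 0.26 ± 0.89, in the order naive, light, moderate, severe, which the lists of 4 values below keep. miR-203a-3p, known for driving keratinocytes out of the cell cycle, read 10.9 ± 1.17, 5.92 ± 0.98, 33.0 ± 1.34 and -9.44 ± 0.72. miR-338-3p, a brain miRNA inside the kinase gene Aatk, read 15.8 ± 0.82, 15.4 ± 0.97, 32.4 ± 1.09 and 9.62 ± 0.82. In all 3 the moderate array was at least 2 times as bright, before scaling, as any other array. miR-338-3p stood at the floor on the naive and light arrays without being called detected there, whereas miR-203a-3p on the severe array lay at blank level.

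miR-208a-5p, the lesser arm of a cardiac miRNA made from inside the myosin gene Myh6, read 4.57 ± 1.01, -3.17 ± 0.76, 32.1 ± 1.21 and -3.84 ± 0.94. miR-335, which is made from the imprinted Mest locus, read 0.48 ± 0.72, -7.64 ± 1.01, 22.7 ± 1.30 and -5.40 ± 1.0. miR-98-5p, a let-7 family member within Huwe1, read 11.5 ± 0.86, 5.83 ± 0.83, 19.7 ± 1.34 and 3.28 ± 0.96. The moderate array was again the highest for each, with the widest gaps for miR-208a-5p and miR-335. That order follows largely from the grouping, since only the moderate array detected these miRNAs.

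The other 16 miRNAs of this group were miR-100-5p, miR-1306-3p, miR-151-3p, miR-152-3p, miR-1839-5p, miR-219-5p, miR-28-5p, miR-2985, miR-301b-3p, miR-3099, miR-322-3p, miR-33-5p, miR-450a-5p, miR-542-5p, miR-674-3p and miR-702-3p. Their sums ran from -15.5 to 19.4 on the moderate array, with a median of 15.7. Medians on the naive, light and severe arrays were -0.72, -1.25 and -3.88. Among them are miRNAs with well-known hosts: miR-33-5p, which represses the cholesterol exporter Abca1, lies within Srebf2, the gene of the sterol-responsive transcription factor SREBP2; miR-28-5p lies within Lpp; miR-1306-3p lies within Dgcr8, whose product helps cut miRNA precursors; and miR-152-3p, which targets the DNA methyltransferase Dnmt1, lies within Copz2. The sums of miR-151-3p, miR-1839-5p, miR-301b-3p, miR-322-3p and miR-674-3p stayed below the floor even on the moderate array, so 17 of the 22 were measured. Of these, miR-1839-5p has 3 probes, and miR-151-3p, miR-301b-3p and miR-674-3p have 4. Blank sums there were -14.4 for 3 probes and -24.7 for 4, so these sums lay above the blank for their number of probes.

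Once the arrays were scaled, most of these 17 had a level on the moderate array that lay under the floors of the other arrays. Their scaled level exceeded the floor of the naive array for 5, miR-3559-5p, miR-203a-3p, miR-338-3p, miR-208a-5p and miR-335. Over all miRNAs measured on the moderate but not on the naive array, 43.6% exceeded it. The level exceeded the floor of the light array for 0 of the 17, against 16.7% of all such miRNAs, and that of the severe array for 1, miR-3559-5p, against 36%. The largest of these bounds was 1.64-fold, for miR-3559-5p against naive, and against severe the same miRNA stood at the floor itself, at 1.0-fold. Without scaling between arrays, 14 of the 17 exceeded each of the 3 floors, so the outcome depends on the scaling. For 12, 17 and 16 of the 17, no difference from the naive, light or severe array was measurable at this brightness.

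**Figure D2:**
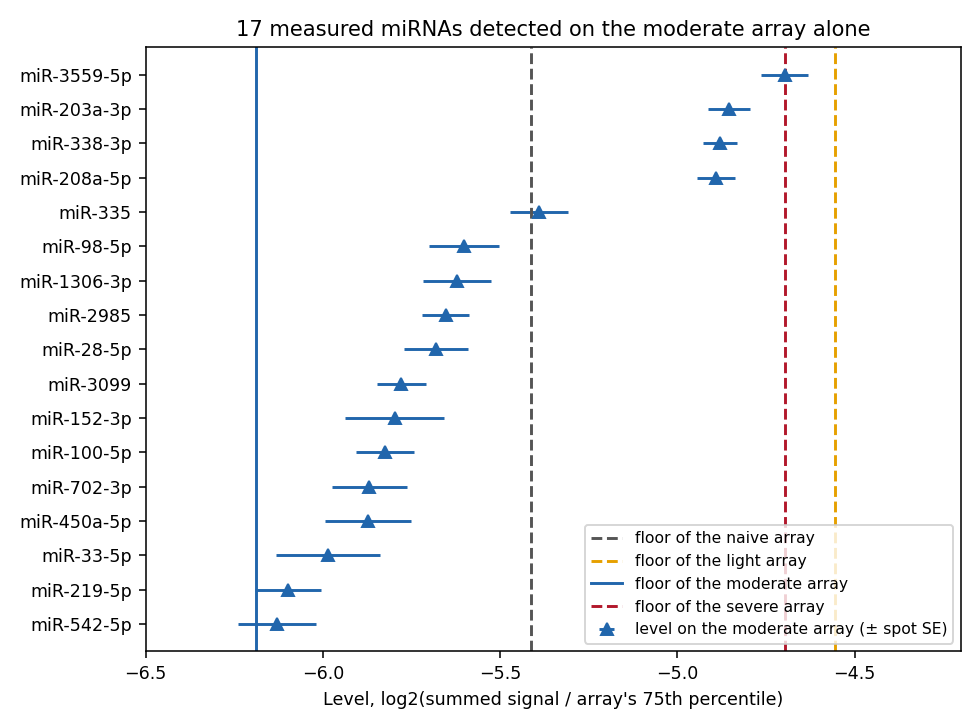
Points give the scaled level of the 17 measured miRNAs detected on the moderate array alone, as log2 of the summed signal over the array's 75th percentile, with bars for the spot SE; vertical lines give the floor of each array on the same scale. The 5 uppermost points lie right of the naive floor, and none reaches the light floor.

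The comparisons of light, moderate and severe against naive share the naive array, and their values are given side by side. A difference of at least 2-fold after scaling was counted as a call, with a bound where 1 array had no measured value. A bound sets the sum on the brighter array against the other array's floor or, if higher, the sum there. Because the floor is that of a single probe, such a bound is not strict.

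A member measured on 1 array but not above the floor of the other, once scaled, counts among those compared but has no direction. Against naive, 6 members were compared on the light array, 3 of them without a direction, and 0 were at least 2-fold higher or lower; over all miRNAs compared, 1.56% were higher and 0.781% lower. On the moderate array 29 members were compared, 15 without a direction, of which 0 were higher, where 5.42% of all miRNAs were, and 1 was lower, miR-883-5p, where 1.2% were. On the severe array 10 members were compared, 2 without a direction, of which 3 were higher, where 24.1% of all miRNAs were, and 0 lower, where 18.2% were. The floors limited these counts in part. The 3 members without a direction on the light array were miR-331-3p, miR-362-3p and miR-465-5p. Their scaled levels on the naive array lay under the light floor, so they could not be called lower. No bound above naive on the moderate array exceeded 1.64-fold, that of miR-3559-5p. No bound below naive on the severe array exceeded 1.93-fold, that of miR-32-3p. Against moderate, the severe array was higher for 3 of 29 members, with a background of 17.8%, and lower for 0, with a background of 17.8% as well. Of these 29, 21 had no direction. The 0 lower was set by the floor of the severe array: even miR-331-3p, the member with the highest sum on the moderate array, allowed a bound of only 1.23-fold lower. Without scaling, 7 members were lower.

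The 3 members higher on the severe array were the same in both comparisons: miR-183-5p, miR-296-5p and miR-770-3p. Both comparisons use the same severe array, so they are not independent. miR-183-5p, made from a cluster active in sensory organs and often raised in tumours, read -9.20 ± 1.0, -8.05 ± 0.99, -8.61 ± 0.82 and 30.5 ± 1.18. miR-296-5p, made near the imprinted Gnas locus and known in blood vessel growth, read 3.19 ± 0.85, 3.87 ± 1.10, 14.6 ± 0.67 and 32.1 ± 1.38. miR-770-3p read 13.7 ± 1.05, 3.45 ± 0.84, 17.4 ± 0.74 and 31.1 ± 1.26. miR-183-5p lay at blank level on 3 arrays. miR-296-5p was also detected on the moderate array, and miR-770-3p on both the naive and the moderate array. For each, the severe array was the brightest before scaling. For miR-183-5p that follows largely from its grouping, since only the severe array detected it. By the scale used here, the severe array was dimmer than the naive and moderate arrays.

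On the severe array, 1 of 2 probes passed the detection limit for miR-183-5p and miR-296-5p each, and 2 of 2 for miR-770-3p. After scaling, miR-183-5p in severe stood at least 3.13-fold above naive and at least 5.36-fold above moderate. miR-296-5p stood at least 3.30-fold above naive and 5.06-fold above moderate, a log2 difference of 2.34 ± 0.09 (spot SE). miR-770-3p stood at least 3.19-fold above naive and 4.11-fold above moderate, a log2 difference of 2.04 ± 0.08. Where only the brightest probe of each was used, the bounds against naive were 2.67-fold, 2.41-fold and 1.60-fold, so that miR-770-3p was no longer past 2-fold. With normexp background correction all 3 were under 2-fold against naive, at 1.81-fold, 1.66-fold and 1.52-fold. Without scaling, miR-296-5p was at least 2.05-fold above naive, while miR-183-5p and miR-770-3p were at 1.95-fold and 1.99-fold. Against moderate, without scaling, miR-183-5p was at 2.33-fold, miR-296-5p at 2.20-fold and miR-770-3p at 1.79-fold, under the threshold.

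The severe array had 525 spots marked as outliers, against 386 or 387 on the others. With those spots kept, the same number of members, 3, was called higher against naive. The miRNAs next to Mir183 gave no signal: miR-96-5p, from a hairpin 203 bases away on the same strand, and miR-182, from one 3798 bases away, were detected on none of the 4 arrays, nor was the partner arm miR-183-3p. The list of red cell miRNAs, which includes this cluster, had its lowest summed signal on the severe array, at 17191, but its most detected members there, with 3, 3, 4 and 5 of 11 in the order from naive to severe. For miR-770-3p, the partner arm miR-770-5p was likewise detected on none, and of 81 miRNAs of the Dlk1-Dio3 region on the array, 76 were detected on none, beside 537 of all 719. The summed signal of the detected ones was 290, 162, 420 and 931, highest on the severe array like miR-770-3p, and their part in its reading was not tested.

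miR-3546, the other miRNA detected on the severe array alone, read -18.2 ± 0.84, -17.5 ± 0.56, -14.8 ± 1.06 and 2.70 ± 0.74. It stayed below the floor, so no fold is given. Its gene and that of miR-208a lie in Myh6 on opposite strands, 16 bases apart by their starts, and the mature strands are complementary to each other over 20 bases. They are printed here with the complementary run in capitals.
miR-208a-5p: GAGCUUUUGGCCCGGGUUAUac
miR-3546: AUAACCCGGGCCAAAAGCUCac

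One of this pair was thus detected on the moderate array alone and the other on the severe array alone. The cardiac partner arm miR-208a-3p was detected on none of the arrays, with sums from -23.2 to -13.4, and neither was miR-208b-3p. A list of 14 heart and skeletal muscle miRNAs had 3, 2, 7 and 1 detected members, again in the order from naive to severe, with summed signals of 1251, 420, 3515 and 39.4. The moderate array was highest there too, and the part of muscle RNA in the reading of miR-208a-5p was not tested.

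3 members were detected on every array except the severe one. miR-32-3p read 49.5 ± 0.94, 42.1 ± 1.29, 43.6 ± 1.17 and 7.26 ± 1.16. miR-672-5p read 30.2 ± 1.41, 27.1 ± 0.93, 25.8 ± 1.47 and 2.39 ± 0.68. miR-883-5p read 28.1 ± 1.09, 18.7 ± 1.03, 12.3 ± 1.34 and -10.3 ± 0.76. Before scaling, the severe array was the lowest for all 3, which follows largely from their grouping. miR-32-3p and miR-672-5p were nearly level across the first 3 arrays. The scale of those 3 arrays differed. For miR-32-3p, light over naive was 0.851 where the scale ratio was 0.534, and moderate over naive was 0.880 where it was 1.43.

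Scaling therefore spread these nearly level readings apart. Scaled, miR-32-3p was 0.67 ± 0.05 higher on the log2 scale on the light array than on the naive, and -0.70 ± 0.05 from naive on the moderate array. miR-672-5p gave 0.75 ± 0.08 and -0.74 ± 0.11. miR-883-5p gave 0.32 ± 0.10 on the light array and was at least 3.08-fold lower on the moderate array, the only one of the 3 past 2-fold there. Without scaling, the light differences from naive were -0.23, -0.16 and -0.59 for miR-32-3p, miR-672-5p and miR-883-5p, so their sign rests on the scaling. With the labelling spike-ins as the scale, the moderate bound of miR-883-5p was 1.92-fold. With normexp background correction both arrays gave a measured value, and the fold was 1.53. Both were under 2-fold. On the severe array the bounds against naive were small: at least 1.93-fold lower for miR-32-3p, 1.18-fold for miR-672-5p and 1.10-fold for miR-883-5p.

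Set directly against the light array, a comparison added after the values were seen, the moderate array was at least 2-fold lower for 3 of 29 members, where 5.42% of all miRNAs were lower, and higher for 0, where 4.82% were higher. Of the 29, 25 had no direction, and the floor of the light array allowed no bound above 1.11-fold higher, that of miR-331-3p. Without scaling, 7 members were higher and 0 lower, and with spike-in scaling 8 higher and 0 lower. The 3 were again miR-32-3p, 2.59-fold lower, miR-672-5p, 2.81-fold lower, and miR-883-5p with a bound of 3.84-fold. Settings that measured miR-883-5p on both arrays gave from 2.25-fold (normexp) to 4.08-fold (floor at the lowest positive sum), so that bound is no lower limit. Without scaling the log2 difference of miR-32-3p was 0.05 and that of miR-672-5p -0.07, and with spike-in scaling 0.21 and 0.09. The bound of miR-883-5p fell under 2-fold, to 1.43-fold without scaling and 1.28-fold with spike-ins. All 3 calls thus rest on the scaling, as does the direction for miR-32-3p and miR-672-5p. The partner arms miR-32-5p, miR-672-3p and miR-883-3p were detected on none of the arrays.

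**Figure D3:**
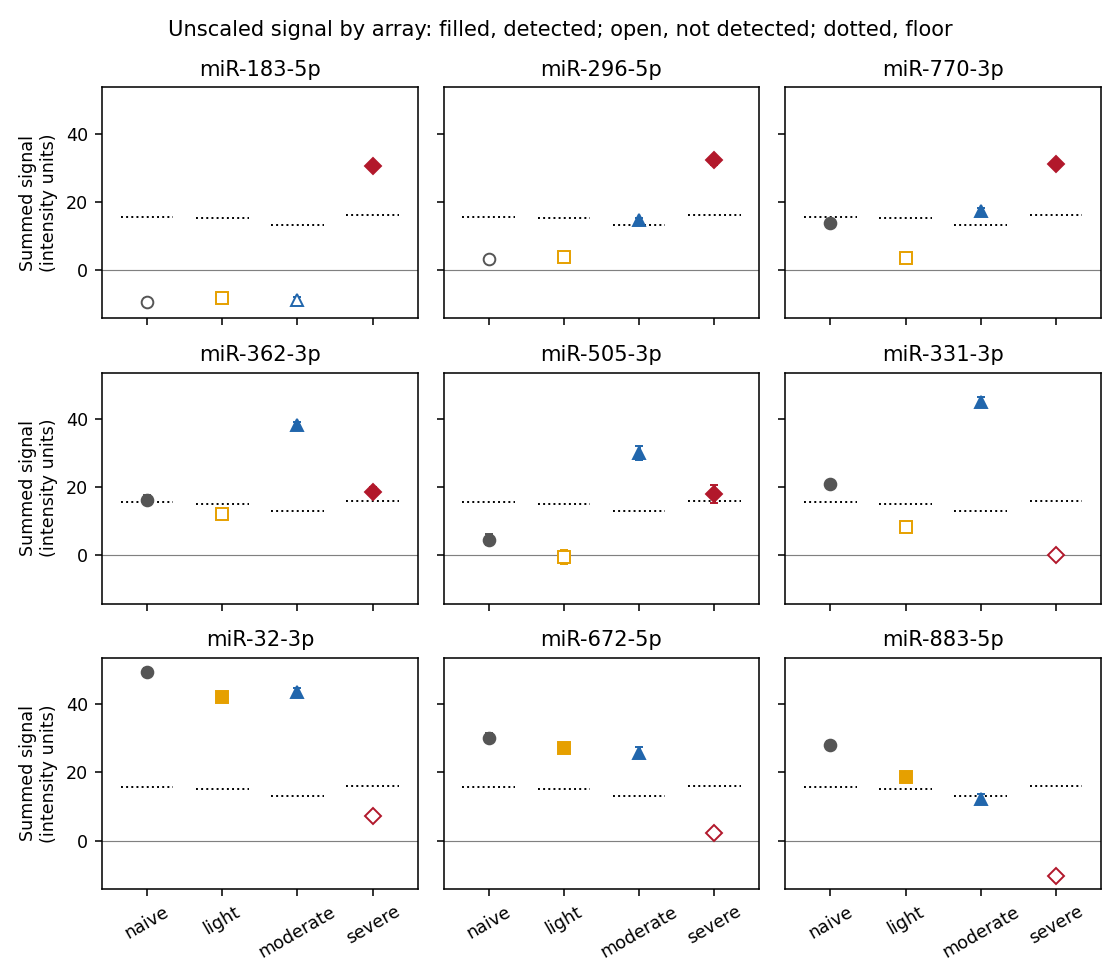
Each panel gives 1 miRNA, with its unscaled summed signal in intensity units on each array; filled markers were detected, open ones were not, bars show the spot SE and dotted lines the floor of each array. The upper row holds the 3 that were brightest on the severe array, and the bottom row the 3 that were detected on every array but the severe one.

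3 further members were detected on the naive, moderate and severe arrays, miR-770-3p among them. miR-362-3p, from an X-linked cluster inside the chloride channel gene Clcn5, read 16.3 ± 1.33, 12.2 ± 1.10, 38.2 ± 1.0 and 18.7 ± 1.34. miR-505-3p read 4.66 ± 1.58, -0.48 ± 1.99, 30.1 ± 2.0 and 17.9 ± 2.61. Both were highest on the moderate array before scaling. Scaled, miR-362-3p was 0.71 ± 0.12 higher on the log2 scale on the moderate array and 0.88 ± 0.16 higher on the severe array than on the naive, and severe and moderate differed by 0.17 ± 0.11. The moderate difference turned to -0.26 with normexp and -2.20 with the 75th percentile over all miRNAs as scale, and the severe difference was 0.20 without scaling. For miR-505-3p the bounds over naive were 1.34-fold in moderate and 1.84-fold in severe, both short of 2-fold. The list of that Clcn5 cluster had 4 of its 10 miRNAs detected on the naive, moderate and severe arrays and 2 on the light array.

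5 members were detected on the naive and moderate arrays. miR-331-3p, within the adherens junction gene Vezt, read 21.0 ± 0.87, 8.39 ± 1.24, 45.0 ± 1.25 and 0.05 ± 1.02. miR-322-5p is described with its cluster below. miR-7a-1-3p, the lesser arm of a miR-7 precursor within Hnrnpk, read 4.51 ± 1.36, 0.47 ± 1.67, 31.4 ± 2.42 and -5.38 ± 2.03. The moderate array was the highest in both, and the severe array the lowest. Scaled, miR-331-3p was 0.58 ± 0.07 higher on the log2 scale on the moderate than on the naive array, and miR-7a-1-3p was at least 1.40-fold higher, both under 2-fold. The difference of miR-331-3p turned to -0.24 with normexp and -2.33 with the 75th percentile over all miRNAs as scale, and was 1.26 with spike-ins.

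miR-339-3p read -3.11 ± 2.09, -14.4 ± 1.41, 21.4 ± 1.45 and -21.0 ± 1.67. It was detected on the naive array by 1 of its 4 probes although its sum there was below 0, and so it has no measured value on that array. The blank sum for 4 probes there was -30.6. miR-465-5p, like miR-883 from the Fmr1-proximal cluster, read 15.8 ± 1.17, 9.02 ± 1.02, 13.7 ± 0.71 and 9.78 ± 1.24. It was the flattest of the 5 and the only one slightly brighter on the naive than on the moderate array, with a scaled log2 difference of -0.72 ± 0.13. Of the 27 miRNAs of the Fmr1-proximal list on the array, 25 were detected on none.

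miR-344g read 0.34 ± 0.94, -1.52 ± 0.66, 12.0 ± 0.81 and 10.6 ± 0.95 and, with miR-296-5p, made up the pair detected on the moderate and severe arrays. It stayed below the floor on both. miR-300-5p, of the Dlk1-Dio3 region, was the single member detected on the naive array alone, with 9.11 ± 2.43, 4.38 ± 1.64, 0.51 ± 1.99 and -15.8 ± 1.48. Its sum on the naive array did not reach the floor, and the ratio of its brightest probe on the light and moderate arrays, 2.85 and 2.84, lay just under the limit.

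4 members come from a single X-linked cluster, the rat counterpart of the cluster of miR-424 and miR-503, whose miRNAs slow cell division. The hairpins Mir322, Mir503, Mir351, Mir542 and Mir450a1 lie in that order on the minus strand, the last of them 5214 bases downstream of the first. miR-322-5p, at chrX:137726198-137726219, read 10.8 ± 1.03, 7.39 ± 0.92, 23.7 ± 1.17 and 7.49 ± 0.90. On the moderate array, miR-322-3p read 8.77, miR-542-5p 13.6 and miR-450a-5p 16.3, and on the other 3 arrays these stayed between -11.3 and 3.54. All 4 were thus highest on the moderate array, and 3 of them were detected there alone, so for those 3 the order follows largely from the selection. The other 6 arms of the cluster on the array, both arms of miR-503 and miR-351, miR-542-3p and miR-450a-3p, were detected on none.

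miR-322-5p carries the seed of the abundant miR-15 and miR-16 family. miR-15b-5p read 1443, 1047, 2971 and 1141, and miR-497-5p 57.5, 47.5, 175 and 46.9. These mates, like miR-322-5p, were highest before scaling on the moderate array, which was also the brightest array. Whether the miR-322-5p probes also bind these RNAs was not tested. Scaled, miR-322-5p on the moderate array was at least 1.06-fold above naive, a bound too small to set the arrays apart.

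**Figure D4:**
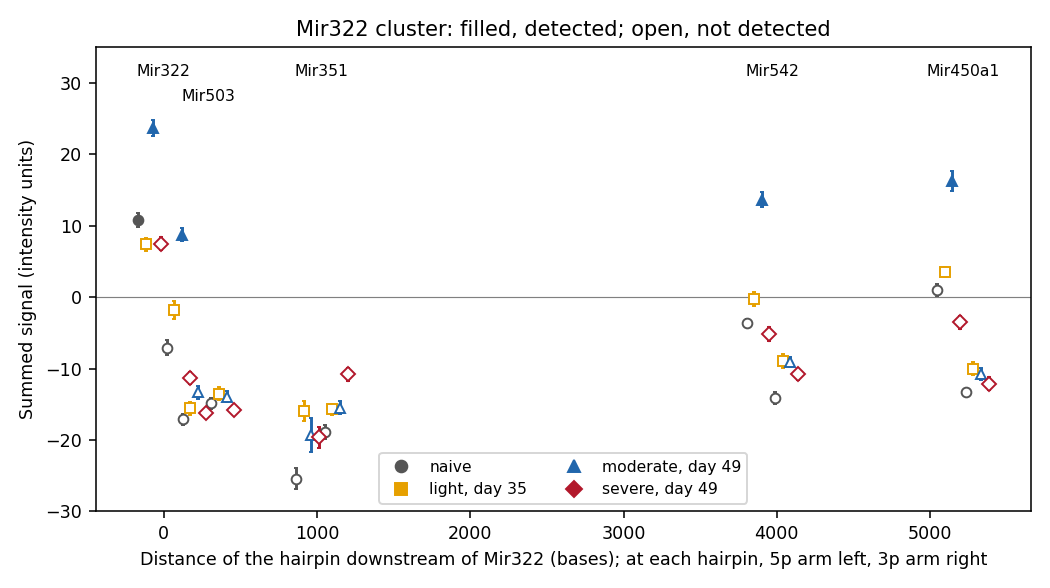
The horizontal axis gives the distance in bases of each hairpin downstream of Mir322, with the 5p arm drawn left and the 3p arm right of the hairpin's position and the 4 arrays side by side, offset for legibility; the vertical axis gives the unscaled summed signal in intensity units with the spot SE. Filled markers were detected, and the moderate array (triangles) holds 4 of the 5 filled points; the remaining one is miR-322-5p on the naive array.

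The members with other seed mates showed the same ordering in part, in sums not scaled between arrays. The scale was 954 on the moderate array, against 666, 356 and 415 on the naive, light and severe arrays. A highest sum on the moderate array thus need not be a highest scaled level. miR-98-5p was highest on the moderate array, at 19.7, as were its mates let-7i-5p (695, 486, 1070 and 259), let-7b-5p (291, 119, 365 and 75.4) and let-7c-5p (277, 98.6, 310.2 and 53). let-7a-5p read 451, 163, 368 and 89.6 and let-7d-5p 321, 139, 292 and 61.9, both highest on the naive array. The hairpin of miR-98 lies 603 bases from that of let-7f-2, and let-7f-5p read 447, 188, 339 and 102.3, also highest on the naive array. miR-152-3p read 17.1 ± 1.65 on the moderate array and between -6.23 and -2.42 on the others, and miR-148b-3p read 76.3, 45.4, 124 and 42.9, with its maximum on the moderate array as well. miR-301b-3p was detected by 1 of 4 probes on the moderate array with a sum of -1.51, and its neighbour miR-130b-3p, 347 bases away and of the same seed, read 177, 164, 353 and 518. The other mate, miR-130a-3p, read 1724, 1457, 3393 and 2155, highest on the moderate array. Binding of these brighter mates to the members' probes was not tested.

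What the members share beyond their detection is limited. Of the 29 whose partner arm was on the array, 27 had a partner detected on none, and the remaining 2 were the arms of miR-322, partners of each other. Of the 34 matched, 26 lay within the span of another gene. The share over all miRNAs was not taken for either count, so neither can be read as particular to the members. Of all 719 miRNAs, 537 were detected on none of the arrays. 11 of the 34, or 32.4%, were X-linked. The share was 15.8% of the 641 matched miRNAs on the array and 8.08% of the 99 matched ones detected on all arrays. Of the 11, 4 come from the Mir322 cluster and 2 from the Fmr1-proximal cluster, so they are not separate loci. The families left out bear on the members' share, and it was not tested. Their median GC content was 45.5%, against 47.6% over the array, with a median length of 22 bases in both. Of the 17 tissue and cluster lists, 12 held at least 1 member, and the lists of hepatocyte miRNAs, of lymphoid and myeloid miRNAs, of the miR-34 and miR-449 families, of miR-17-92 with its paralogues and of the Sfmbt2 cluster held 0. For the hepatocyte, the lymphoid and myeloid, and the miR-17-92 lists the selection bears on this, since it left out most of their families: 1, 4 and 1 of their miRNAs were detected on some arrays.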

How the data were processed

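Serum exosome RNA was measured on 4 single-colour arrays, 1 per group. The deposited spot intensity values were, per the file headers, background-subtracted by Agilent Feature Extraction 10.7.3.1 and not scaled between arrays; the submitters' processing notes name version 9.1. The labels' labelling protocol describes amplified cRNA, which is not the usual miRNA labelling and was not resolved. Detection calls (0 or 1) and total intensity per miRNA are, per the file headers, those of the same software; of the deposited value table's 102 miRNAs, 0 were members. Each array had 14380 spots, 0 saturated. Outlier spots were left out, spots averaged per probe, and probes (1 to 4) summed per miRNA. Each sum was set over the 75th percentile of that array, taken across the 111 everywhere-detected miRNAs, before log2. The floor was the dimmest signal of a probe for which 0.5 or more of the spots stood well above background.

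The members and lists were chosen with earlier results of these data known. Values on all arrays are given for up to 6 members per detection pattern, by scaled level, and for every member at least 2-fold apart in a comparison; cluster and seed mates are named beside them. The values of miR-152-3p and of the arms of the miR-322 cluster were added after they were seen. Alternatives changed the scaling, background, value per miRNA, outliers, detection, floor and fold. Normexp (limma 3.58.1, R 4.3.3, offset 50) used the median signal, since the spot files used here hold no mean signal column. Its offset exceeded the members' mean signals per probe, of which the highest was 38.1, so normexp says little about their folds. The code for the fold calls was checked on simulated intensities, which gave no value used here; other steps used python 3.11.15 and pandas 2.3.3. The number of arrays limits the precision.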

Additional observations from a re-analysis of the deposited data

Results flagged for a closer look

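3 miRNAs stood on opposite sides of the naive array in different disease groups; the differences between groups were not tested, since each group had 1 array. miR-32-3p was 0.67 from naive on the log2 scale in light, -0.70 in moderate and -0.95 (a bound) in severe. miR-672-5p gave 0.75, -0.74 and a bound of -0.24 on the same arrays. miR-883-5p gave 0.32 in light, and bounds of -1.62 and -0.13 in moderate and severe. Without scaling between arrays the light value of miR-32-3p was -0.23, that of miR-672-5p -0.16 and that of miR-883-5p -0.59, so the opposite sign on the light array is present only with some scalings.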

How the results depend on the processing

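Over 12 settings besides the reported one, 99 of 156 counts of members stayed within 1.5 times the reported count and 57 did not; nearly all of these counts are small. No paired analysis was possible because each group has 1 array and the labels give no replicate numbers, and no array could be left out. The cause of each change was not tested.

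Without scaling, against naive the moderate array had 7 members higher and the severe array 1 higher and 1 lower, severe against moderate had 7 lower, and moderate against light 7 higher and 0 lower; 14 moderate-only members exceeded each of the 3 floors. With spike-in scaling, moderate had 8 higher and 0 lower against naive, and 8 higher and 0 lower against light, and 15, 17 and 4 exceeded the naive, light and severe floors. With median scaling, 1 exceeded the light and 0 the severe floor. The 75th percentile over all miRNAs was 0.77 in naive, -0.74 in light, 8.26 in moderate and 0.34 in severe, so it gave no value with the light array; elsewhere it gave 6 lower for moderate against naive, 5 higher for severe against naive and against moderate, and 0 above the naive and severe floors.

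With normexp, 0 members were lower for moderate and 0 higher for severe against naive, and 0 exceeded the naive and severe floors. The brightest probe alone also gave 0 above those floors. The scanner software's total signal gave 5 higher and 2 lower for moderate against naive, 2 lower for severe against naive, 1 higher for moderate against light, and 13, 6 and 4 above the 3 floors. With the floor at the lowest positive sum, moderate against naive had 17 higher and 2 lower, severe against naive 5 and 5, severe against moderate 5 and 17, moderate against light 3 higher, and 17, 11 and 14 exceeded the floors. At 1.5-fold, light had 2 higher, moderate 2 higher and 4 lower, and severe 5 higher and 1 lower against naive. With outlier spots kept, 0 exceeded the severe floor. With the blank level taken off, chosen after seeing the data, 2 were lower for moderate against naive and 0 exceeded the severe floor. Detection by spots well above background left 6, 21 and 4 members on the naive, moderate and severe arrays.

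The differences of miR-32-3p and miR-672-5p between moderate and light changed sign: miR-32-3p was 0.050 without scaling and 0.21 with spike-ins, and miR-672-5p 0.090 with spike-ins. Those of miR-331-3p and miR-362-3p between moderate and naive, both under 2-fold as reported, turned to -0.24 and -0.26 with normexp and to -2.33 and -2.20 with the 75th percentile over all miRNAs. miR-183-5p and miR-296-5p on the severe array were above naive and above moderate in all 12 settings that give a difference, the reported one included, at 1.81 to 15.99-fold and 1.66 to 16.2-fold above naive; miR-770-3p ran from 1.52 to 4.54-fold. miR-883-5p was lower on the moderate than on the naive array in all 12, by 1.53 to 23.2-fold. Signals near the floor limit all of these values.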
